A study of Mus musculus with 40 samples.

Results

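The proteasome genes were followed across the livers of male C57BL/6J mice kept on 2 diets and 3 feeding regimens. Members were taken by symbol, as genes of the Psma, Psmb, Psmc, Psmd, Psme and Psmg series with a probe detected at p under 0.01 on at least 4 arrays. Of 45 symbols that fit by name, 42 passed, out of 7958 genes tested in all. Psma1 and Psma6 (20S alpha subunits) and Psmc3ip did not pass, the last of which is not a proteasome gene despite its symbol. Psme3ip1, which encodes a protein that binds an activator, passed by name only and is kept apart. The other 41 comprised 5 alpha and 7 beta genes of the 20S core, 3 immunoproteasome genes, 6 base ATPases, 3 other base subunits, 7 lid subunits, 6 assembly factors and 4 activators. The probe used for each gene was detected on all 34 arrays whose detection p-values were read in 38 of the 42, and on at least 30 of them in Psmb8, Psmc6, Psmd2 and Psmd5.

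Liver RNA was hybridised to Illumina mouse BeadChips, 1 array per liver, 40 arrays in all. Mice arrived at 6 weeks of age and ate their diet from 5 months. The WIS diet, made of purified ingredients, supplied 46% of energy as sucrose and 24.4% as fat; the NIA diet, of open-source composition, supplied 7.6% as sucrose and 17.7% as fat. There were 10 CR-WIS livers (caloric restriction by 30%, WIS diet), 4 MF-WIS livers (meal feeding, WIS diet), 6 AL-WIS livers (ad libitum, WIS diet), 9 CR-NIA livers, 6 MF-NIA livers and 5 AL-NIA livers. CR and MF mice had their food in 1 daily portion at 3 pm, fixed in size at 14 months of age; the CR portion was laid on the cage floor, whereas hoppers held the food of MF and AL mice. MF-NIA mice were allotted the calorie intake of the AL-WIS and MF-WIS mice, so MF-NIA and AL-NIA differ in amount as well as in timing. Neither the hour of day nor the age at which livers were taken is stated in the labels.

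The proteasome degrades proteins tagged with ubiquitin. Its 20S core is a barrel of stacked alpha and beta rings, with the proteolytic sites on Psmb5, Psmb6 and Psmb7, and interferon replaces these with Psmb8, Psmb9 and Psmb10 to form the immunoproteasome. The 19S cap consists of a base, whose ATPases unfold substrates, and a lid, which removes the ubiquitin chain; in liver the system clears short-lived enzymes and damaged proteins.

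Promoter sequence was available for 36 of the 42 genes (RefSeq, build GRCm38.p6); Psmb1, Psmb2, Psmb7, Psmc3, Psmd7 and Psmg2 had no entry and are only named. The 250 bases before each start were searched on both strands for the letters of 4 motifs. NRF1 here is nuclear respiratory factor 1, a different factor from Nfe2l1 (below), which is also called NRF1. Its motif (GCGCA, any base, then GCGC) was found in 6 of 36 (16.7%), against 4.23% of all 27025 genes with a promoter. These were Psma2, Psma3, Psma4, Psmc4, Psmc5 and Psmd14. CCGGAAG, an ETS motif, was found in 11 (30.6%), against 7.83%, and in none of the 9 20S genes with an entry. CCAAT was found in 12 (33.3%), against 37.5%, and TGACNNNGC, the core of the antioxidant response element, in 5 (13.9%), against 11.5%. No matches of different motifs overlapped. The 120 bases before the start are printed, 5′ to 3′ and all on the plus strand, for the 4 genes whose differences between the diets under CR had the smallest adjusted p: Psma3 at chr12:70974503-70974622, Psma4 at chr9:54950739-54950858, Psmb3 at chr11:97703314-97703433 and Psmd13 at chr7:140882274-140882393. Capitals mark the NRF1 motif in Psma3 (its first base 78 bases before the start) and Psma4 (61 before), and CCAAT in Psmb3 (85 and 43 before); the Psmd13 stretch held none of the 4 motifs.
Psma3: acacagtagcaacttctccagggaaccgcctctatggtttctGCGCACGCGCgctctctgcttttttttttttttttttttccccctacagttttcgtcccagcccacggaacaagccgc
Psma4: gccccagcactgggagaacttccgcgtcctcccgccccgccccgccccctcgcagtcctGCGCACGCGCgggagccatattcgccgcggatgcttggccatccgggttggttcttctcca
Psmb3: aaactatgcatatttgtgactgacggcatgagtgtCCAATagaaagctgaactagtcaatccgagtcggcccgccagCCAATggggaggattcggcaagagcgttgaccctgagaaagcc
Psmd13: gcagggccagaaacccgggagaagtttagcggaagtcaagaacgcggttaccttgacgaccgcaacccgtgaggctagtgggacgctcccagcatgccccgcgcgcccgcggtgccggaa
A match is a match of letters; binding was not measured.

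A level below is the deposited z-score of the gene's probe on an array, multiplied by 1.51 to read in log2 units above the array's mean, and a difference is between group means of levels. Differences were tested with limma over all 40 arrays with Benjamini-Hochberg adjustment over the 7958 genes at 0.05, and every adjusted p below is from that test. Between 8725 and 11199 of 25697 probes were detected per array, and precision is set by the number of arrays in a group. Comparisons that share a group (CR-NIA with AL-NIA and with MF-NIA, for example) are not independent of each other. In whole liver, fewer cells of a type and less RNA per cell cannot be told apart. Of 12 hepatocyte markers 11 were measured, with group medians of their mean level between 5.32 and 5.57, and Alb was among them. Single livers ranged more widely, at 4.36 to 5.58 in AL-WIS, 5.08 to 6.33 in CR-NIA and 5.03 to 5.49 in MF-NIA. The part of this spread in the differences below was not tested.

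Some libraries stood apart. AL-WIS replicate 1 had a mean level of 4.98 over 12 measured macrophage markers of 18, against a median of 2.02 in AL-WIS, and of 2.48 over 5 of 8 neutrophil markers, against 0.44. Dbp, a clock output gene, was at 0.79 in the library labelled CR-NIA replicate 1, against 5.40 to 6.30 in the other 8 CR-NIA livers, 3.76 to 5.72 in MF-NIA and 0 to 4.45 in AL-NIA, and no signal column of its group matched its scores. MF-WIS replicate 4 had an endothelial marker mean of 0.03, the lowest of all. MF-NIA replicate 4 had a neutrophil marker mean of 1.95, against -0.62 to -0.20 in the other 5 MF-NIA livers, and the highest macrophage marker mean of its group, 2.42. Calls that begin or end without the first 3 of these libraries together are given beside the result.

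Psmd13, a structural subunit of the lid, had the largest difference of the 42 genes in 4 comparisons: CR-NIA against AL-NIA, CR-NIA against MF-NIA, CR-WIS against CR-NIA and the diet difference of the CR effect. Its level in CR-NIA livers had a lowest value of 3.70, a median of 4.62 and a highest value of 4.95. It was 3.43, 3.54 and 3.65 in the same order in MF-NIA livers, and 3.65, 3.62, 3.53, 3.64 and 3.50 in the 5 AL-NIA livers. All 9 CR-NIA livers lay above every MF-NIA and AL-NIA liver, the lowest, replicate 1, only just. The difference of CR-NIA from AL-NIA was 0.95 (SE 0.13, 1.93-fold, adjusted p = 4.23e-05), and 1.05 without the 3 libraries. From MF-NIA it was 0.99 (SE 0.12, 1.99-fold, adjusted p = 3.9e-06), and 1.09 without them. Psmd13 is read by 1 probe past the filter.

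On the WIS diet Psmd13 was at 3.79, 3.94 and 4.26 (lowest, median, highest) in CR-WIS livers. It was at 3.74, 3.71, 3.76 and 3.53 in the 4 MF-WIS livers and at 3.59, 3.82 and 3.99 in AL-WIS livers. All 10 CR-WIS livers lay above the 4 MF-WIS livers, but the difference of 0.26 did not pass (adjusted p = 0.264), and that of CR-WIS from AL-WIS was 0.14 (adjusted p = 0.423). Between the diets under CR, Psmd13 was lower in CR-WIS than in CR-NIA livers by a log2 difference of -0.59 (SE 0.10, adjusted p = 0.00145), with ranges that overlap. It was at -0.69 without the 3 libraries, since CR-NIA replicate 1 is the lowest of its group.

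The test of the diet difference of the CR effect itself gave -0.81 for Psmd13 (SE 0.17, 95% interval -1.15 to -0.46), with an adjusted p of 0.0531, just outside the threshold. Without CR-NIA replicate 1 it was -0.91 (adjusted p = 0.000497), inside it. For Psmb3 it was -0.46 (adjusted p = 0.157), and -0.50 (adjusted p = 0.029) without that library. Without the 3 libraries Psme3ip1 passed as well (0.44, adjusted p = 0.0413). With each array's trend with level removed, a setting chosen after seeing the data, both passed, Psmd13 at -0.87 (adjusted p = 0.0158) and Psmb3 at -0.53 (adjusted p = 0.0293). No proteasome gene passed in limma for this diet difference over all 40 arrays, against 0.0126% of all genes higher and 0.0251% lower, and 9 had an unadjusted p under 0.05 (10.1% of all genes). For the diet difference of the MF effect none passed either, against 0% of all genes in both directions, and 8 had an unadjusted p under 0.05 (9.69% of all genes).

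**Figure D1:**
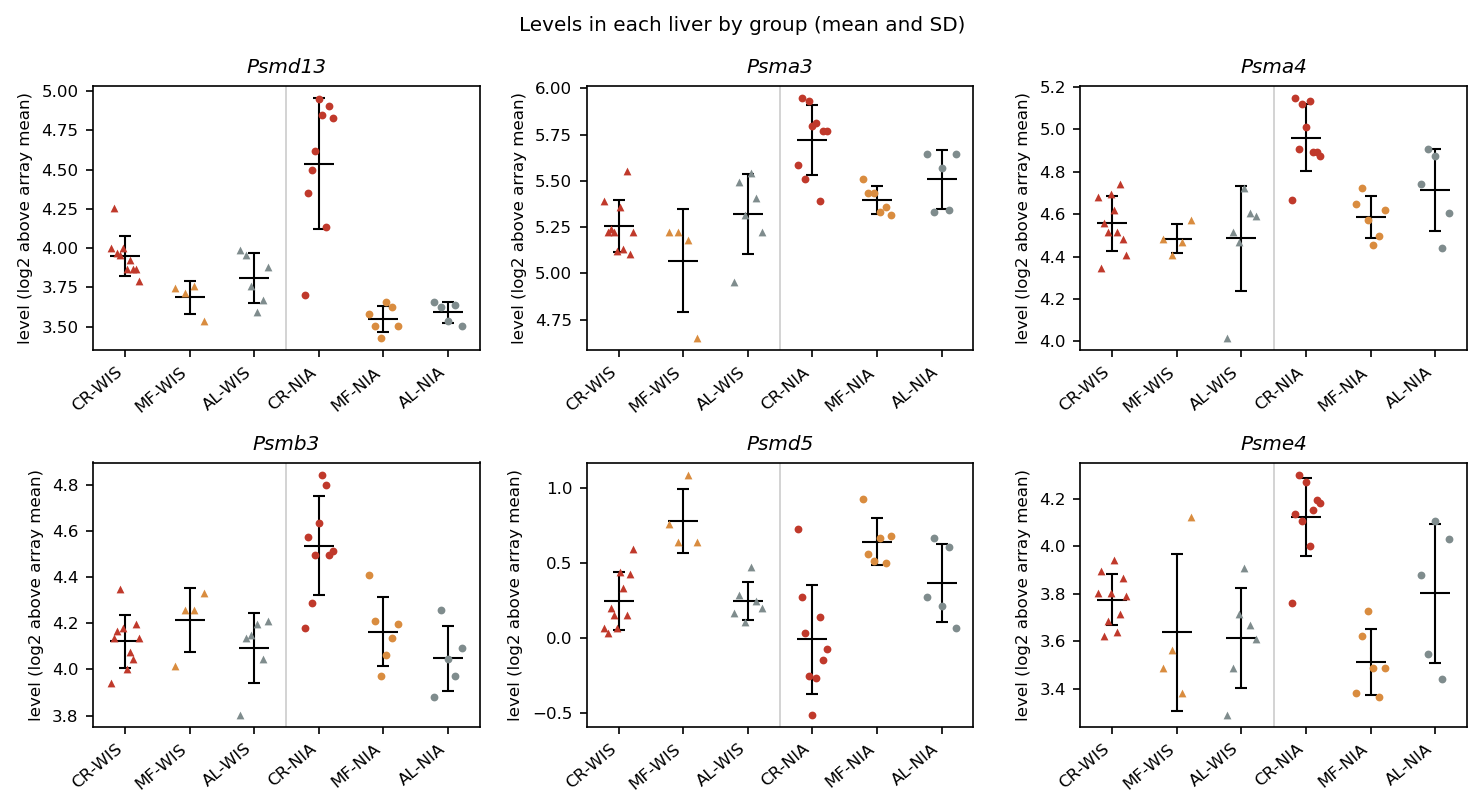
Levels (log2 above the array mean, vertical axis) of Psmd13, Psma3, Psma4, Psmb3, Psmd5 and Psme4 in every liver, by group, with the WIS groups left of the NIA groups; points are livers and bars the mean and SD. Psmd13 stands at 3.70 to 4.95 in CR-NIA livers, above all MF-NIA and AL-NIA livers, and Psmd5 is at -0.51 to 0.72 in CR-NIA livers, against 0.50 to 0.92 in MF-NIA livers.

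Between the diets under CR, 5 of the 12 measured constitutive genes of the 20S core were lower in CR-WIS than in CR-NIA livers. These were Psma2, Psma3, Psma4, Psma7 and Psmb3, and none was higher. With Psmd13 and the activator Psme4, 7 of the 42 genes were lower and 0 higher; 1.31% of all genes were lower and 1.5% higher. The median difference was -0.20 over the 12 core genes and -0.29 over the 5 alpha genes. It was -0.05 over the 16 base and lid genes and -0.04 over the 1350 genes with a mean level above 3.

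Psma3 and Psma4 form part of the alpha ring, which gates entry to the core. Psma3 was at 5.10, 5.22 and 5.56 (lowest, median, highest) in CR-WIS livers, against 5.39, 5.77 and 5.95 in CR-NIA livers. Psma4 was at 4.35, 4.54 and 4.74 in CR-WIS livers, against 4.67, 4.91 and 5.15 in CR-NIA livers. For both genes, most CR-WIS livers lay below all CR-NIA livers, 8 of 10 for Psma3 and 7 of 10 for Psma4. The differences were -0.47 for Psma3 (SE 0.08, adjusted p = 0.00145) and -0.40 for Psma4 (SE 0.08, adjusted p = 0.00226).

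Psmb3, a non-catalytic beta subunit, was at 3.94, 4.14 and 4.35 in CR-WIS livers, against 4.18, 4.51 and 4.85 in CR-NIA livers. In 7 of 10 CR-WIS livers it was below all CR-NIA livers, and its difference was -0.41 (SE 0.08, adjusted p = 0.00168). Psma7 was at -0.26 (adjusted p = 0.0206) and Psma2 at -0.29 (adjusted p = 0.0266). The call of Psma2 ended when CR-NIA replicate 4, 5, 6 or 8 or CR-WIS replicate 7 was left out, with an adjusted p of up to 0.0729. Psma5 (-0.10), Psmb1 (-0.25), Psmb2 (0.05), Psmb4 (-0.15), Psmb5 (-0.16), Psmb6 (0.05) and Psmb7 (-0.08) did not pass. Without the 3 libraries 8 genes were lower and 1 higher, adding Psmb1 as lower and Psmd5 as higher. With the trend with level removed 6 genes were lower, all but Psma2. The shares of all genes called under these settings are not given here. Of the 7 lower genes, 3 (42.9%) hold the NRF1 match described above: Psma2, Psma3 and Psma4. The shares were 16.7% over the 36 proteasome genes with a promoter and 4.23% over all genes with one. CCAAT matched in 4 of the 7 (57.1%, against 37.5% of all genes with a promoter): Psma2, Psma3, Psma7 and Psmb3. The ETS motif matched in 1, Psme4, and the core of the antioxidant response element in 0. The 7 were chosen by these same data, and a part of any motif in their difference was not tested.

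Averaged over the regimens, 3 genes, all of the core, were lower on WIS than on NIA and 0 were higher; 1.27% of all genes were lower and 1.48% higher. Psma3 differed by -0.33 (SE 0.06, adjusted p = 0.00254) and Psma4 by -0.24 (SE 0.05, adjusted p = 0.0142). Psmb4, at -0.19 (adjusted p = 0.0455), lost its call in 26 of the 40 fits that left out 1 library, with an adjusted p of up to 0.0992, and without the 3 libraries together (adjusted p = 0.0915). Without those libraries Psma7 (-0.16, adjusted p = 0.0348) and Psme1 (-0.28, adjusted p = 0.0102) passed as lower. The averages hold the same livers as the CR comparison between the diets.

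Under meal feeding no gene passed in limma between MF-WIS and MF-NIA, where 0% of all genes did; 3 of the 42 had an unadjusted p under 0.05, as had 10.6% of all genes. Psma3 was at 5.22, 5.22, 5.18 and 4.65 in the 4 MF-WIS livers, against 5.31, 5.40 and 5.51 (lowest, median, highest) in MF-NIA livers. All 4 MF-WIS livers were below all 6 MF-NIA livers, as in 1.19% of all genes, at a difference of -0.33 (adjusted p = 0.311). Replicate 4 was the lowest, and without it the difference was -0.19 (adjusted p = 0.927).

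Under ad libitum feeding no gene passed in limma between AL-WIS and AL-NIA, where 0.0251% of all genes were higher and 0% lower; 10 of the 42 had an unadjusted p under 0.05, as had 13.2% of all genes. In 5 genes all 6 AL-WIS livers were below all 5 AL-NIA livers, as in 0.54% of all genes. These were Psmb4 (-0.39, adjusted p = 0.113), Psmb5 (-0.29, adjusted p = 0.351), Psmd4 (-0.33, adjusted p = 0.34), Psme1 (-0.29, adjusted p = 0.366) and Psme3ip1 (-0.30, adjusted p = 0.263). Psmb5, which carries the chymotrypsin-like site, was at 1.69, 1.81 and 1.86 in AL-WIS livers, against 2.01, 2.42, 1.98, 1.98 and 2.01 in AL-NIA livers.

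Within the NIA diet, CR against MF feeding gave more calls among these genes than any other comparison: 12 of 42 were higher in CR-NIA than in MF-NIA livers and 2 lower, where 5.79% of all genes were higher and 9.54% lower. Of the higher, 7 were among the 12 core genes, with a median difference of 0.31 over the 12. Among the 16 base and lid genes 4 were higher and 0 lower, with a median of 0.01. Genes with a high level were in general higher in CR-NIA: of the 1350 with a mean level above 3, 20.3% were called higher and their median was 0.17. Over the 483 with a mean level above 4.5 the median was 0.32.

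The SD of the log2 signals also differed between these groups, at 1.52 to 1.66 over the MF-NIA arrays and 1.38 to 1.56 over the 8 CR-NIA arrays read. With each array's trend with level removed, 2 core genes were higher (Psma7 and Psmb5) and the core median was 0.06; 6 of the 42 were then higher and 1 lower. With arrays centred on their median, 21 were higher and 1 lower, and the median of all genes was 0.11 in place of -0.06. The shares of all genes called in these fits are not given here. Log2 signals of 34 arrays, without CR-NIA replicate 1, were also centred on the median and not divided by the SD. Of the core genes called higher, Psma4 (0.34), Psma7 (0.41), Psmb1 (0.30), Psmb3 (0.38) and Psmb4 (0.23) then stayed past the threshold. Psma2 (0.24, adjusted p = 0.0629) and Psma3 (0.22, adjusted p = 0.201) did not. With neqc of the same arrays only Psma7 and Psmb3 among them stayed. The part of the array scale in the core's difference was not tested.

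**Figure D2:**
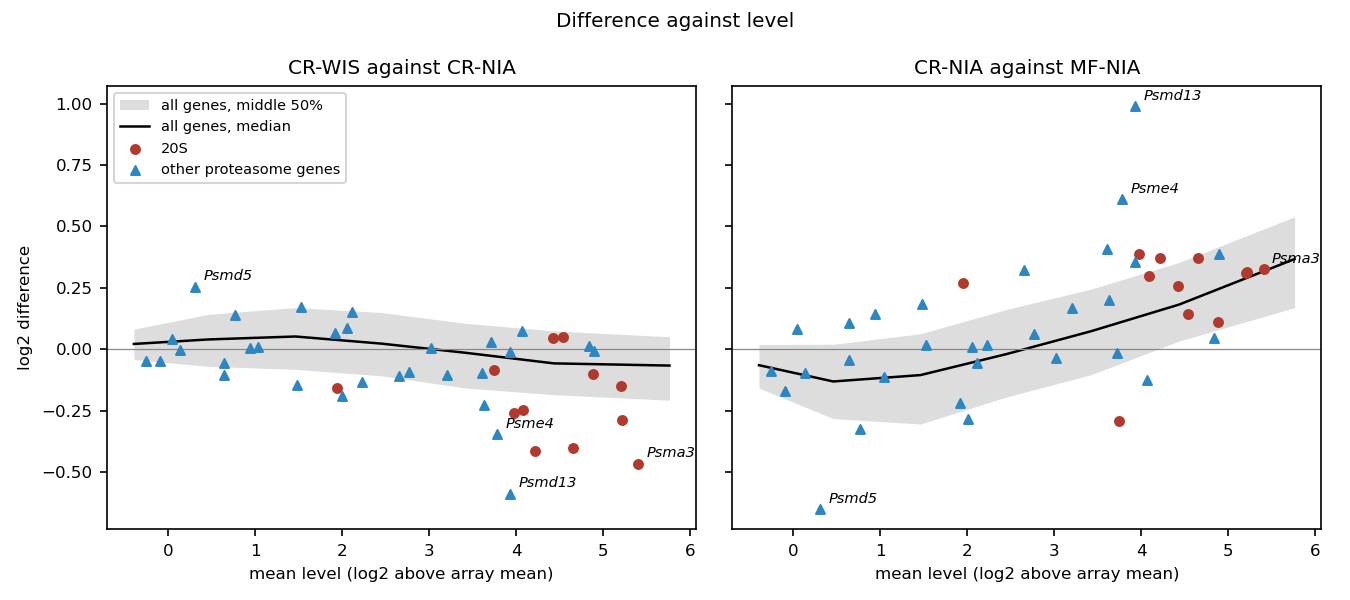
Log2 difference (vertical axis) against mean level (log2 above the array mean, horizontal axis) for CR-WIS against CR-NIA and CR-NIA against MF-NIA; red circles are 20S core genes, blue triangles the other proteasome genes, and the line and band the median and middle 50% of all genes. Most core genes, but not Psmb2 and Psmb6, lie below the line on the left (median -0.20); on the right they scatter around or above it, with Psmb7 well below, and the line itself reaches 0.37 among the brightest genes.

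Psma7, an alpha subunit, was at 3.83, 4.24 and 4.44 (lowest, median, highest) in CR-NIA livers, against 3.71, 3.81 and 3.96 in MF-NIA livers. In 8 of 9 CR-NIA livers it was above all MF-NIA livers; the ninth was replicate 1. The difference was 0.39 (SE 0.07, adjusted p = 0.000623), and 0.25 (adjusted p = 0.0288) with the trend removed. The other core calls were Psma2 (0.32), Psma3 (0.33), Psma4 (0.37), Psmb1 (0.30), Psmb3 (0.37) and Psmb4 (0.31), with adjusted p between 0.00295 and 0.0205. That of Psmb1 ended without MF-NIA replicate 4 (adjusted p = 0.0978), the library with the high neutrophil marker mean. Each of these 6 ended with the trend removed.

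Among the catalytic subunits, Psmb5 was at 1.89, 2.07 and 2.46 in CR-NIA livers, against 1.65, 1.83 and 1.92 in MF-NIA livers, a difference of 0.27 (adjusted p = 0.084). Psmb6, which carries the caspase-like site, was at 4.09, 4.42 and 4.95, against 4.02, 4.27 and 4.39 (0.26, adjusted p = 0.138). Psmb7, which carries the trypsin-like site, was at 3.34, 3.70 and 4.24, against 3.68, 3.98 and 4.59 (-0.29, adjusted p = 0.229). The ranges overlap for all 3, and none passed in any of the 12 comparisons over all 40 arrays; with the trend with level removed Psmb5 passed here (0.33, adjusted p = 0.0426), as it did without the 3 libraries (0.30, adjusted p = 0.0168). With neqc of the signals, which hold no column that matches CR-NIA replicate 1, Psmb5 (0.44, adjusted p = 0.0137) passed as higher here. Psmb7 (-0.47, adjusted p = 0.0345) then passed as lower by the probe used. Its other detected probes gave -0.04 and 0.07 in this comparison over all 40 arrays.

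In the base and lid, Psmd13 (above), Psmc3, Psmd4 and Psmd8 were higher in CR-NIA than in MF-NIA livers. Psmc3, a base ATPase, differed by 0.32 (adjusted p = 0.00987), also with the trend removed (0.31, adjusted p = 0.0194). Psmd4, a ubiquitin receptor, was at 4.57, 4.83 and 5.56 in CR-NIA livers, against 4.42, 4.56 and 4.86 in MF-NIA livers. Its difference was 0.39 (adjusted p = 0.0241), lost without CR-NIA replicate 5 or 6 or MF-NIA replicate 4 or 6, with an adjusted p of up to 0.0621. It also ended with the trend removed (0.15, adjusted p = 0.375) and with neqc or quantile normalization of the signals. Psmd8, a lid subunit, was at 3.83, 3.90 and 4.33 in CR-NIA livers, all above the 3.47, 3.63 and 3.77 of MF-NIA livers. Its difference was 0.35 (adjusted p = 0.0231), lost without CR-NIA replicate 5 or MF-NIA replicate 1 or 6, with an adjusted p of up to 0.0568. Under the same settings its call ended too (0.22, adjusted p = 0.308 with the trend removed). Psmd13, Psmd8 and Psme4 were the 3 genes whose CR-NIA livers were all above the MF-NIA livers, as in 0.854% of all genes.

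Psme4 encodes PA200, an activator that caps the core without ubiquitin. It was at 3.76, 4.15 and 4.30 in CR-NIA livers and at 3.37, 3.49 and 3.73 in MF-NIA livers, and every CR-NIA liver was above every MF-NIA liver. The difference was 0.61 (SE 0.10, 1.53-fold, adjusted p = 0.000171), and 0.49 (adjusted p = 0.00134) with the trend removed. A dimmer probe of Psme4, detected on 5 of 34 arrays, gave -0.27 (adjusted p = 0.0121), and the call ended with the mean of the probes. In AL-NIA livers Psme4 was at 3.88, 3.55, 4.11, 3.44 and 4.03, overlapping both, and CR-NIA differed from AL-NIA by 0.32 (adjusted p = 0.0516) over all arrays and by 0.37 (adjusted p = 0.00241) without the 3 libraries, past the threshold. Between the diets under CR, Psme4 was at 3.62, 3.80 and 3.94 in CR-WIS livers and -0.35 (adjusted p = 0.0263) from CR-NIA, lost without CR-NIA replicate 3, 5 or 8 or CR-WIS replicate 7, with an adjusted p of up to 0.0512.

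Psmd5, a chaperone that holds base ATPases during assembly, had the reverse direction. It was at -0.51, -0.08 and 0.72 in CR-NIA livers and at 0.50, 0.61 and 0.92 in MF-NIA livers. In 8 of 9 CR-NIA livers it was below all MF-NIA livers, and the ninth, replicate 1, had the highest value of its group. The difference was -0.65 (SE 0.13, 1.57-fold, adjusted p = 0.000599), and -0.53 (adjusted p = 0.00421) with the trend removed. In AL-NIA livers it was at 0.27, 0.66, 0.21, 0.60 and 0.06, within the CR-NIA range and overlapping MF-NIA. CR-NIA differed from AL-NIA by -0.37 (adjusted p = 0.0616) over all arrays and by -0.47 (adjusted p = 0.00315) without the 3 libraries, past the threshold.

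The same gene differed between CR and MF on the WIS diet, the only 1 of 42 lower there, with 0 higher; 2.01% of all genes were lower and 1.36% higher. Psmd5 was at 0.03, 0.17 and 0.59 in CR-WIS livers, against 0.75, 0.63, 1.09 and 0.63 in MF-WIS livers. All 10 CR-WIS livers were below all 4 MF-WIS livers, as in 1.09% of all genes; Psmd13, above, was the only one of the 42 with all CR-WIS livers higher (0.691% of all genes). The Psmd5 difference was -0.53 (SE 0.14, adjusted p = 0.0309), lost without CR-WIS replicate 1 or 2 or MF-WIS replicate 1, 3 or 4, with an adjusted p of up to 0.0978. In AL-WIS livers Psmd5 was at 0.11, 0.22 and 0.47, below all 4 MF-WIS livers, and MF-WIS differed by 0.53 (adjusted p = 0.16).

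MF-WIS against AL-WIS gave no call among the 42 genes in limma, where 0.0251% of all genes were higher and 0.0126% lower; 6 of the 42 had an unadjusted p under 0.05, as had 14.8% of all genes. Psmd5 was the only one with all MF-WIS livers above all AL-WIS livers, as in 0.691% of all genes. The other 5 with an unadjusted p under 0.05 were Psma3 (-0.25), Psmb7 (0.45), Psmd7 (0.25), Psmd9 (0.30) and Psmg2 (0.24), with adjusted p between 0.287 and 0.335. Without MF-WIS replicate 4 the differences of Psma3 (-0.11) and Psmd7 (0.12) were smaller, at unadjusted p of 0.333 and 0.289. That of Psmg2 was 0.20 (unadjusted p = 0.0855). Those of Psmb7 (0.59), Psmd9 (0.43) and Psmd5 (0.58) were larger, at unadjusted p of 0.00905, 0.00761 and 0.00154. Psmd10 (-0.33) and Psmb10 (-0.53) then had unadjusted p of 0.00598 and 0.0209. None passed, and the lowest adjusted p was 0.253, for Psmd5. In CR-NIA against MF-NIA the lower genes were Psmd5 and Psme3, the nuclear PA28-gamma activator. Psme3 was at 0.35, 0.57 and 1.07 in CR-NIA livers, against 0.72, 0.92 and 1.21 in MF-NIA livers. Its difference of -0.32 (adjusted p = 0.0318) was lost in 7 of 15 fits without 1 library (CR-NIA replicate 5, 6, 8 or 9, MF-NIA replicate 1, 2 or 4), with an adjusted p of up to 0.0951, and in 7 of 12 other settings, among them the trend removed (-0.20, adjusted p = 0.214).

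CR against ad libitum feeding on NIA called 5 genes higher and 3 lower, where 4.8% of all genes were higher and 6.32% lower. Besides Psmd13 these were Psmb3, Psme2, Psmd9 and Psma7 (higher) and Psmd11, Psmc2 and Psme3ip1 (lower). Without the 3 libraries 9 were higher and 6 lower, adding Psma2, Psma3, Psma4 and Psme4 as higher and Psmc4, Psmd5 and Psmd7 as lower. The share of all genes called in that fit is not given here, so whether all genes gained calls likewise is not shown. The 12 core genes had a median of 0.18 with 2 called; over all genes with a mean level above 3 the median was 0.08 and 8.07% were called higher.

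Psmb3 was at 4.18, 4.51 and 4.85 in CR-NIA livers, against 3.88, 4.26, 4.05, 3.97 and 4.09 in AL-NIA livers. In 8 of 9 CR-NIA livers it was above all AL-NIA livers, and the difference was 0.49 (SE 0.09, adjusted p = 0.000784). Psme2, a subunit of the PA28 activator, was at 1.39, 1.65 and 1.95 in CR-NIA livers, all above the 1.30, 1.33, 1.36, 1.21 and 1.22 of AL-NIA livers. Psme2 and Psmd13 were the 2 genes whose CR-NIA livers were all higher, as in 0.478% of all genes, and the difference of Psme2 was 0.36 (SE 0.10, adjusted p = 0.0125). Its partner Psme1 was at 3.52, 3.76 and 4.12 in CR-NIA livers, against 3.70, 3.71, 3.79, 3.59 and 3.76 in AL-NIA livers, a difference of 0.10 (adjusted p = 0.675).

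Psmd11, a lid subunit, was at 1.24, 1.75 and 2.20 in CR-NIA livers, against 2.11, 2.45, 2.46, 2.14 and 2.29 in AL-NIA livers. In 7 of 9 CR-NIA livers it was below all AL-NIA livers, at -0.55 (SE 0.15, adjusted p = 0.0155), while another detected probe of it gave -0.01. Psmc2, a base ATPase, was at 4.48, 4.74 and 5.04 in CR-NIA livers, against 5.06, 5.19, 5.06, 4.89 and 5.31 in AL-NIA livers. Its difference of -0.34 (adjusted p = 0.0237) was lost without AL-NIA replicate 2 or 5, with an adjusted p of up to 0.0875. Psme3ip1 was at 1.71, 1.95 and 2.33 in CR-NIA livers, against 2.29, 2.31, 2.26, 2.36 and 2.43 in AL-NIA livers, at -0.37 (adjusted p = 0.0103), with its other probe at -0.36.

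Psmd9, an assembly chaperone of the base, was at -0.29, 0.29 and 0.57 in CR-NIA livers, against -0.18, -0.18, -0.05, -0.32 and -0.24 in AL-NIA livers. Its difference of 0.39 (adjusted p = 0.0366) was lost without any 1 of 10 libraries (AL-NIA replicate 1, 2, 4 or 5, CR-NIA replicate 3, 4, 5, 7, 8 or 9), with an adjusted p of up to 0.109, and its other probe gave -0.07. Psma7, at 0.24 (adjusted p = 0.0429), was lost without any 1 of 9 (AL-NIA replicate 1, 3 or 4, CR-NIA replicates 4 to 9), with an adjusted p of up to 0.176, and its other probe gave 0.02. The used probe of Psmd7, a lid subunit, gave -0.19 (adjusted p = 0.2), and its other probe -0.77 (adjusted p = 0.0019).

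**Figure D3:**
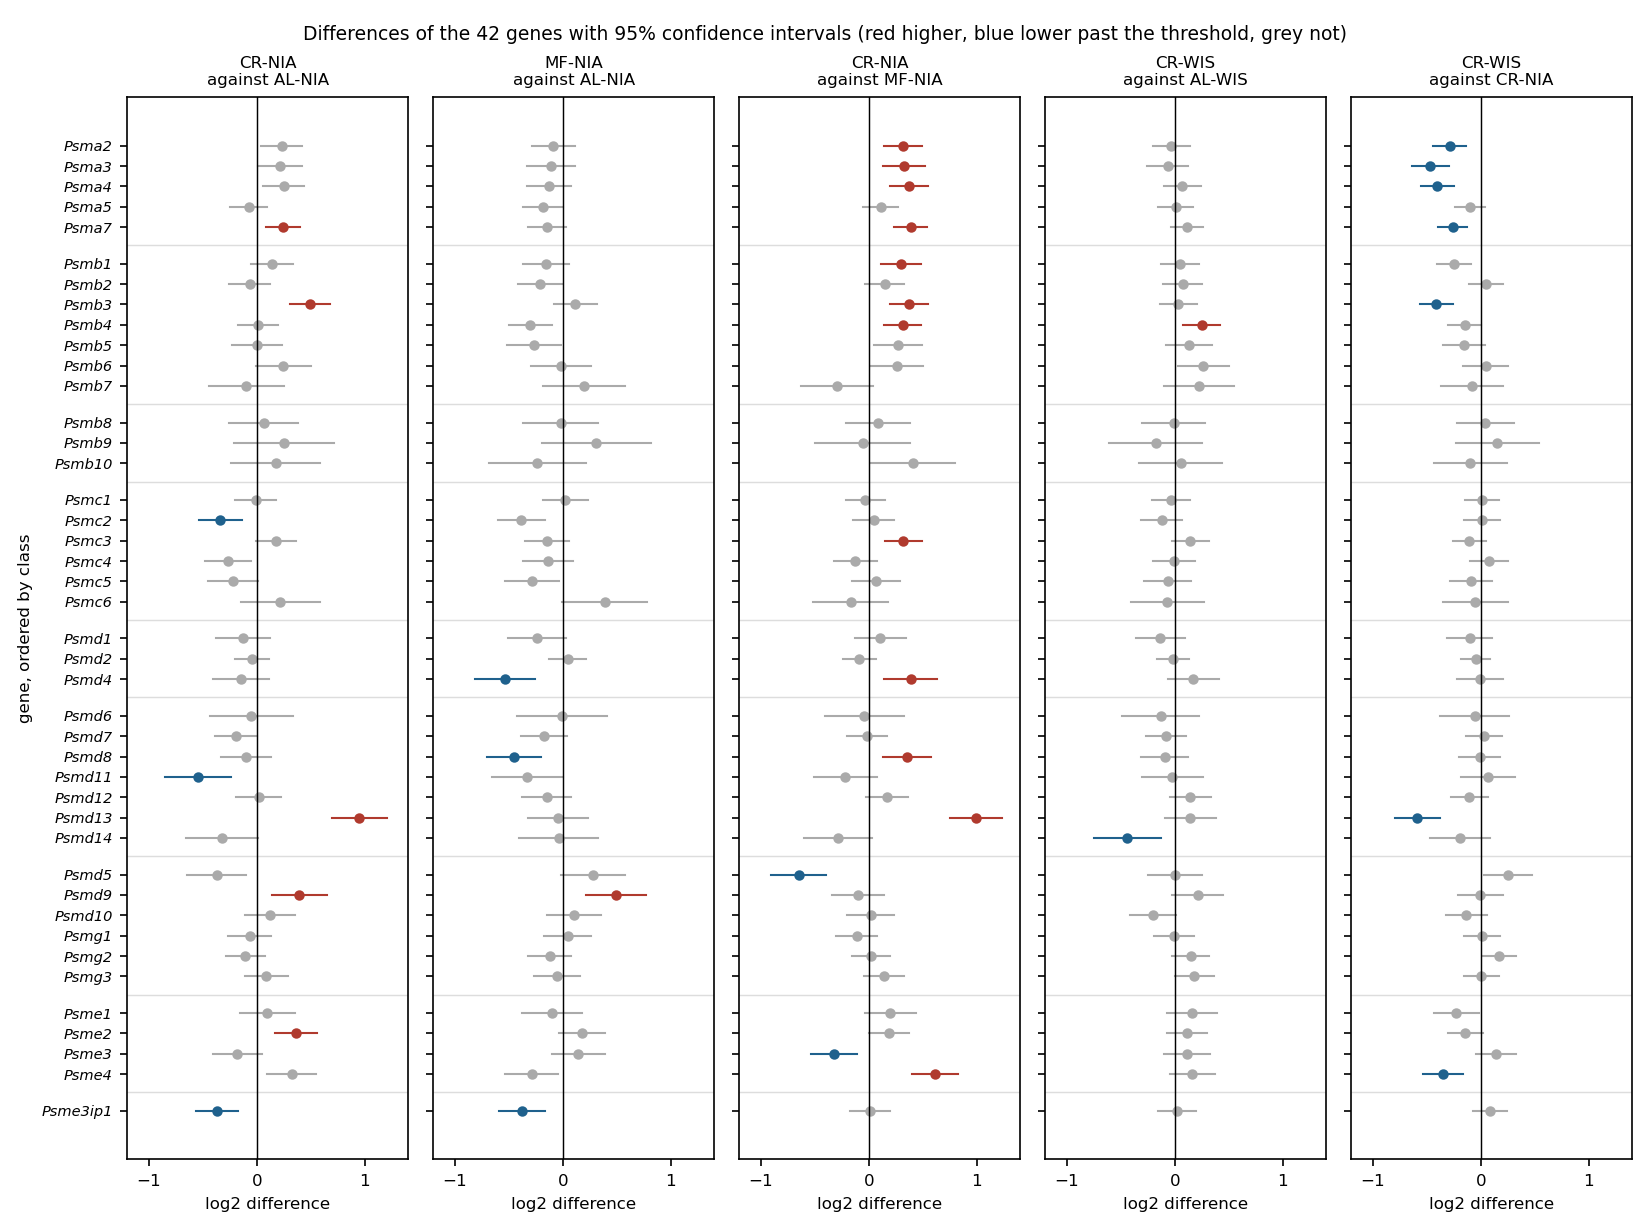
Log2 difference with its 95% confidence interval (horizontal axis) for each of the 42 genes (rows, by class) in 5 comparisons; red marks genes past the threshold and higher in the group named first, blue lower, grey not past it. The 20S core is red in 7 of 12 genes for CR-NIA against MF-NIA and blue in 5 of 12 for CR-WIS against CR-NIA.

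MF against ad libitum feeding on NIA called 1 gene higher and 3 lower, where 1.09% of all genes were higher and 0.867% lower. Psmd4 was at 4.42, 4.56 and 4.86 in MF-NIA livers, all below the 5.09, 5.47, 5.00, 5.00 and 5.07 of AL-NIA livers. Its difference was -0.54 (SE 0.14, adjusted p = 0.0376), lost without AL-NIA replicate 1, 2 or 5 or MF-NIA replicate 2, 3, 4 or 6, with an adjusted p of up to 0.0941. Psmd8 was at 3.47, 3.63 and 3.77 in MF-NIA livers, against 4.32, 4.15, 3.71, 4.11 and 4.06 in AL-NIA livers. Its difference of -0.45 (adjusted p = 0.0451) was lost without any 1 of 9 libraries (all but AL-NIA replicate 3 and MF-NIA replicate 4), with an adjusted p of up to 0.128.

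Psmd9, the gene called higher, was at -0.12, 0.31 and 0.66 in MF-NIA livers (0.49, adjusted p = 0.0481), while its other probe gave -0.06 (adjusted p = 0.837), and Psme3ip1 at 1.75, 1.92 and 2.17 (-0.38, adjusted p = 0.0451). Each of these calls was lost without any 1 library other than MF-NIA replicate 4, with an adjusted p of up to 0.141 for Psmd9 and 0.143 for Psme3ip1. With the trend with level removed, Psme3ip1 was the only one of the 4 still past the threshold (-0.41, adjusted p = 0.0277), and without the 3 libraries Psmc2 passed as lower too (-0.38, adjusted p = 0.0128). In 5 genes all MF-NIA livers were below all AL-NIA livers (Psmb4, Psmb5, Psmc2, Psmd4 and Psme3ip1), as in 1.97% of all genes. The median over the 42 was -0.12, against 0.04 over all genes and -0.11 over those with a mean level above 3.

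On the WIS diet CR against ad libitum feeding called 1 gene higher and 1 lower, where 6.55% of all genes were higher and 7.77% lower. Psmb4, a core beta subunit, was at 4.86, 5.29 and 5.39 in CR-WIS livers, against 4.83, 4.96 and 5.16 in AL-WIS livers. It differed by 0.25 (adjusted p = 0.0415), lost without any 1 of 8 libraries (AL-WIS replicate 1, 4 or 5, CR-WIS replicate 1, 2, 4, 9 or 10), with an adjusted p of up to 0.113; without the 3 libraries it was 0.23 (adjusted p = 0.0931), and with the trend with level removed it was 0.07 and did not pass. Psmd14, the deubiquitinase of the lid, was at 1.34, 1.74 and 2.16 in CR-WIS livers, against 1.83, 2.11 and 2.82 in AL-WIS livers. It differed by -0.44 (adjusted p = 0.0488), lost without any 1 of 11 of the 16 libraries (all but AL-WIS replicates 2 and 3 and CR-WIS replicates 3, 6 and 8), with an adjusted p of up to 0.165. Of 12 other settings Psmd14 lost its call in 7 and Psmb4 in 9, with neqc among them for both. With the trend with level removed Psmd14 stayed, and Psmc2 passed as lower in CR-WIS against AL-WIS (-0.29, adjusted p = 0.026). Beside these values, 10 of 12 macrophage, 5 of 7 stellate cell and fibroblast and 3 of 5 neutrophil markers passed as lower in CR-WIS against AL-WIS, with the mean over the macrophage markers at 0.745 to 2.21 in CR-WIS and 1.34 to 4.98 in AL-WIS. Their part in the differences of Psmb4 and Psmd14 was not tested.

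The immunoproteasome genes Psmb8, Psmb9 and Psmb10 gave no call in any of the 12 comparisons in limma. An unadjusted p was under 0.05 for 1 of 3 in AL-WIS against AL-NIA, as it was for 13.2% of all genes. The same held for 1 of 3 in CR-NIA against MF-NIA, where the share of all genes is not given here, and for none in the others. Psmb9 was at 1.19, 2.20 and 2.88 in CR-WIS livers, 1.77, 2.16, 2.04 and 2.72 in MF-WIS livers, 1.59, 2.47 and 2.84 in AL-WIS livers, 1.54, 1.93 and 3.02 in CR-NIA livers, 1.81, 2.05 and 2.49 in MF-NIA livers, and 1.43, 1.59, 1.89, 1.95 and 2.05 in AL-NIA livers. All 6 groups overlapped. The difference of AL-WIS from AL-NIA was 0.58 (SE 0.25, adjusted p = 0.343).

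Single livers stood out in all 3 genes together. CR-NIA replicate 9 was the highest of its group for Psmb8 (0.69), Psmb9 (3.02) and Psmb10 (4.32). MF-WIS replicate 4 was likewise, at 0.57, 2.72 and 4.48, and AL-WIS replicate 1, at 0.59, 2.84 and 4.08. In CR-WIS, replicate 5 was highest for Psmb8 (0.56) and Psmb9 (2.88), and replicate 8 for Psmb10 (4.26). The same MF-WIS liver was the highest of its group for Psme1 (4.21) and Psme2 (1.69), and CR-WIS replicate 5 for Psme1 (4.08). The mean level over 4 antigen-presenting cell markers was also the highest of its group in MF-WIS replicate 4 (3.58), AL-WIS replicate 1 (4.81) and CR-WIS replicate 5 (3.15), and was 3.03 in CR-NIA replicate 9, second to replicate 1 (3.04). Their part in these levels was not tested. Psmb10 was at 2.94, 3.38 and 3.65 in MF-NIA livers and at 3.14, 3.76 and 4.32 in CR-NIA livers, and Psmb8 did not exceed 0.69 in any liver.

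**Figure D4:**
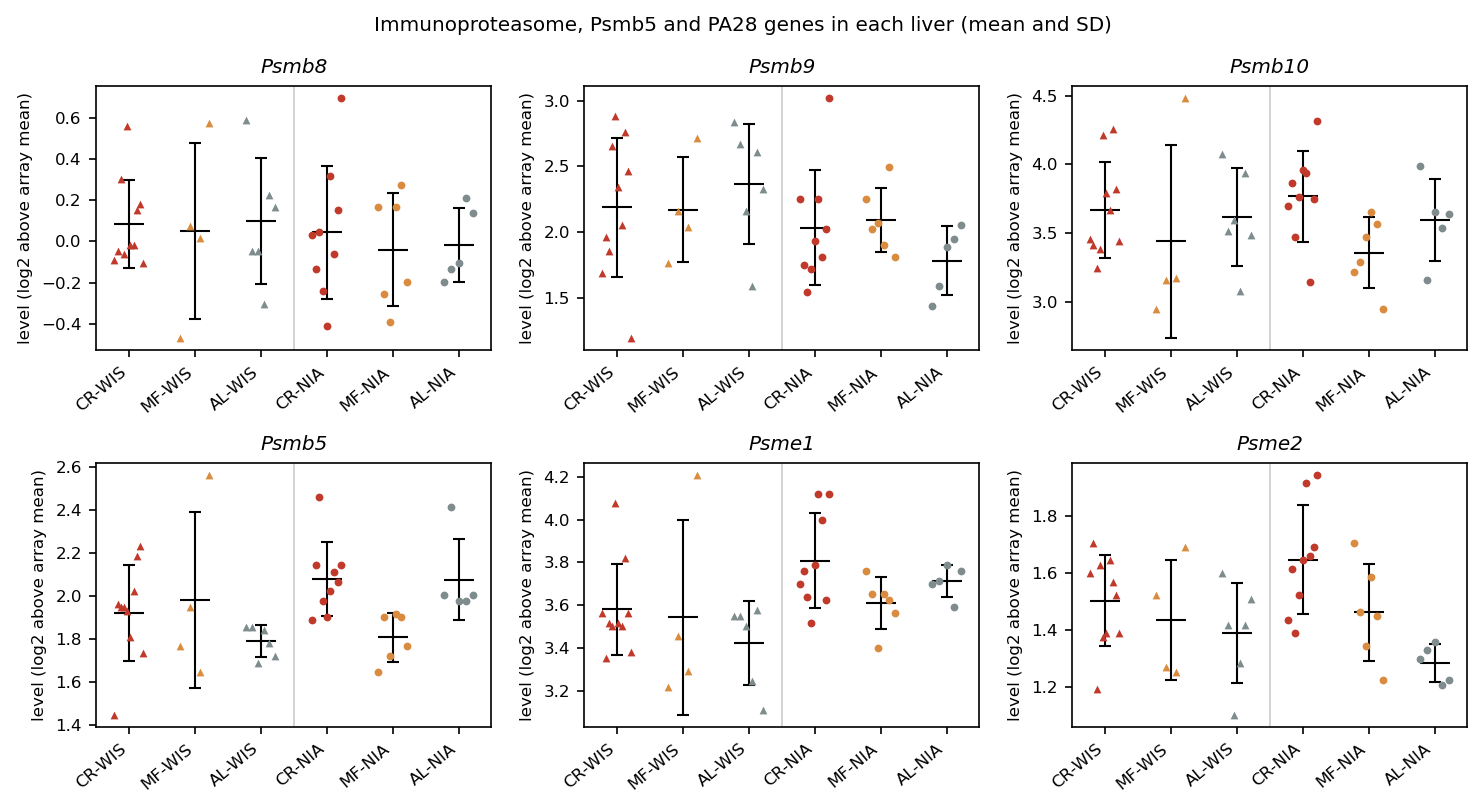
Levels (log2 above the array mean, vertical axis) of Psmb8, Psmb9, Psmb10, Psmb5, Psme1 and Psme2 in every liver, by group, with the WIS groups left of the NIA groups; points are livers and bars the mean and SD. The groups overlap for the 3 immunoproteasome genes, and 1 liver of MF-WIS stands high for all of them.

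Among the assembly factors of the core, Psmg1, Psmg2 and Psmg3 passed in no comparison; their differences between group means lay between -0.12 and 0.28. With the trend with level removed Psmg3 passed in CR-NIA against MF-NIA (0.27, adjusted p = 0.0422), and with neqc there (0.48, adjusted p = 0.0056) and in CR-WIS against AL-WIS (0.34, adjusted p = 0.0416). The base ATPases Psmc1, Psmc4, Psmc5 and Psmc6, the scaffold subunits Psmd1 and Psmd2, the lid subunits Psmd6, Psmd7 and Psmd12, and the assembly chaperone Psmd10 passed in none either over all 40 arrays by the probe used, nor did the core genes Psma5, Psmb2, Psmb5, Psmb6 and Psmb7 or the activator Psme1. A dimmer probe of Psmd10 passed as lower in CR-NIA against MF-NIA (-0.38, adjusted p = 0.00959), CR-WIS against MF-WIS (-0.45, adjusted p = 0.0306) and CR-WIS against AL-WIS (-0.31, adjusted p = 0.043). The other probe of Psmd7 passed as lower in CR-NIA against MF-NIA too (-0.46, adjusted p = 0.0271). In CR-WIS against MF-WIS the used probe of Psmd7 passed as lower with the trend removed (-0.40, adjusted p = 0.0214) and with neqc (-0.39, adjusted p = 0.03).

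Genes that work beside the proteasome were read from lists chosen with earlier results of these data known. Their calls were not followed without the 3 libraries, with the trend with level removed or under other settings. Of 15 partners 6 were measured. Sem1, a small lid protein, was at 4.91, 5.31 and 5.65 in CR-NIA livers, 4.57, 4.68 and 4.73 in MF-NIA livers and 4.71, 4.91 and 5.10 in AL-NIA livers. Its difference from MF-NIA was 0.61 (SE 0.10, adjusted p = 0.000102) and from AL-NIA 0.39 (adjusted p = 0.013), and CR-WIS differed from MF-WIS by 0.47 (adjusted p = 0.0148). Pomp, the maturation factor of the core, was higher in CR-NIA than in MF-NIA livers (0.47, adjusted p = 0.00249), and Uchl5, a deubiquitinase of the base, lower (-0.69, adjusted p = 0.000748). Ube3c, a ligase that acts at the proteasome, was lower there (-0.27, adjusted p = 0.0394) and in CR-WIS against MF-WIS (-0.41, adjusted p = 0.0213), where Zfand2a was lower too (-0.48, adjusted p = 0.0316). In CR-NIA against MF-NIA the median of all genes was 0.18 at mean levels of 4 to 5 and 0.37 above 5. That median was -0.13 at 0 to 1 and -0.11 at 1 to 2. The part of this trend with level in the calls of list genes was not tested.

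Of 7 regulators of proteasome genes 4 were measured. Nfe2l1, the factor that induces proteasome genes when the proteasome is inhibited, was higher on WIS than on NIA averaged over the regimens (0.33, SE 0.08, adjusted p = 0.0219). Its mean level was 3.25 ± 0.26 in CR-WIS, 3.34 ± 0.14 in MF-WIS, 3.26 ± 0.26 in AL-WIS, 2.97 ± 0.26 in CR-NIA, 2.99 ± 0.21 in MF-NIA and 2.91 ± 0.27 in AL-NIA (SD; n = 10, 4, 6, 9, 6 and 5). Nfe2l2, the oxidative stress factor, was lower in CR-NIA than in MF-NIA livers (-0.89, SE 0.16, adjusted p = 0.000305) and than in AL-NIA livers (-0.84, SE 0.17, adjusted p = 0.00159). Vcp, an unfoldase upstream of the proteasome, was higher in CR-NIA than in MF-NIA livers (0.39, adjusted p = 0.0249). The median difference there was 0.37 over the 326 genes with a mean level above 5, among which Vcp and Pomp fall. Nploc4, the cofactor of Vcp, was higher in CR-WIS against AL-WIS (0.30, adjusted p = 0.0421).

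None of 3 measured shuttle factors of 5 passed in limma. At most 2 had an unadjusted p under 0.05 in a comparison, a count given without the share of all genes. Of 11 antigen-processing genes 10 were measured, and 2 passed: the interferon factor Irf1, lower in CR-WIS against AL-WIS (-0.48, adjusted p = 0.0463), where 7.77% of all genes and 10 of 12 macrophage markers were lower too, and the class I gene H2-D1, higher on WIS averaged over the regimens (0.29, adjusted p = 0.0322), as were 1.48% of all genes.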

How the data were processed

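Liver RNA of 40 mice was read on Illumina BeadChips with 25697 probes. The signal intensity values and the detection p-values per probe were deposited by the authors as a non-normalized table, exported from GenomeStudio 2011.1 per the submitters' processing notes. Of its signal columns 34 were used. The 6 named for AL-NIA were not, since they outnumber the 5 AL-NIA samples and their names do not show which belongs to which. CR-NIA had the reverse, 8 columns for 9 samples, and CR-NIA replicate 1 matched none of the 8. Whether it matches a column named for AL-NIA was not tested, and the main fits keep it under its label. Outside AL-NIA, whose libraries were not compared, the score that the authors deposited for each probe matches the z-score of the log2 signal within an array. The largest difference was 0.0091, except for CR-NIA replicate 1, which differed by up to 3.17 from its closest column. The transformation itself is not given in the sources used here. Scores were multiplied by 1.51, the median SD of the log2 signals over those 34 columns. Detection was therefore not read in AL-NIA.

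Probes with detection p under 0.01 on at least 4 arrays were kept (11334), and the brightest such probe stood for each of 7958 genes. A platform table gave 1 symbol for 23978 probes and none for 1719. limma 3.58.1 in R 4.3.3 fitted 1 mean per group over 40 arrays, tested 12 contrasts, and was tested on simulated data; p-values of a gene's other probes were adjusted over all probes past the filter. The design text calls the samples biological replicates. Shared replicate numbers did not pair samples, since in no comparison did every pair of deviations correlate above 0.1.

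The members and all lists were chosen with earlier results of these data known. Genes were named by rule: per comparison up to 4 members in each direction with the smallest adjusted p among those past the threshold; Psmb5 to Psmb10 and Psme1 and Psme2; and per class the member with the smallest p for CR or MF against AL, 24 in all. Others are named where a count needed them, after their values were seen. Alternatives were neqc, quantile normalization, median centring, log2 signals centred but not divided by the SD, no filter, a filter on detection on every array of a group, the mean of probes, only the groups compared, a replicate block, array weights, removal of each array's trend with level, leaving out each library, and leaving out the 3 libraries that stood apart. Of a list of ubiquitin genes none was measured, and they are not analysed here. The series text states more arrays than the 40 analysed here.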

Additional observations from a re-analysis of the deposited data

Results flagged for a closer look

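In 17 of 144 sets of levels of 1 named gene in 1 group, 1 liver lay apart from the rest. Its gap to its nearest neighbour was large beside the group's range. For independent sets chance gives about 1 in 20. These sets share livers, and genes were named partly by these same data, so the 17 cannot be read against that rate. AL-WIS replicate 1 accounts for 4: it was the lowest of its group for Psma4 at 4.02 (nearest 4.47), Psmc2 at 4.59 (nearest 4.89) and Psmd11 at 1.21 (nearest 1.84), and the highest for Psmd8 at 4.79 (nearest 3.96). The same liver has the highest macrophage and neutrophil marker means of its group; their part was not tested. MF-WIS replicate 4 was the lowest of its group for Psma3 at 4.65 (nearest 5.18) and the highest for Psmb10 at 4.48 (nearest 3.17).

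AL-NIA replicate 2 was the highest of its group for Psmb4 at 5.59 (nearest 5.33), Psmb5 at 2.42 (nearest 2.01) and Psmd4 at 5.47 (nearest 5.09). CR-WIS replicate 6 was the lowest of its group for Psmb4 at 4.86 (nearest 5.13), Psmb6 at 4.09 (nearest 4.44) and Psmd4 at 4.499 (nearest 4.86). The remaining 5 were single genes. Psmb9 was highest in CR-NIA replicate 9 at 3.02 (nearest 2.25), and Psmb5 in CR-NIA replicate 3 at 2.46 (nearest 2.14). Psmd13 was highest in CR-WIS replicate 2 at 4.26, above the other 9 livers, and Psme3 in CR-WIS replicate 1 at 1.10 (nearest 0.83). Psmd4 was lowest in AL-WIS replicate 4 at 4.30 (nearest 4.82).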

How the results depend on the processing

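No value of a named gene past the threshold turned its direction under any alternative run, whereas 52 values of 12 differences not past it did, all still not past it; 163 planned and 10 added values of single genes fell outside the threshold and 6 came inside it, against 1259 and 79 on the same side. Counts of proteasome genes called moved by over 1.5 times as follows, and the cause was not tested. The share of all genes called under each alternative is not given beside these counts, so whether all genes moved likewise is not shown. CR-NIA against AL-NIA (8) gave 2 with a replicate block, 15 with array weights and 15 without the 3 libraries. CR-WIS against AL-WIS (2) gave 1 with neqc, quantile normalization, array weights, log2 signals centred on the median or without the 3 libraries, and 0 with median centring, no detection filter, only the groups compared or the block. Both calls of the main fit ended with neqc and with quantile normalization, and the 1 with neqc was Psmg3. MF-NIA against AL-NIA (4) gave 2 with no filter, 0 with the block, 8 with weights and 1 with the trend removed. CR-NIA against MF-NIA (14) gave 22 with median centring and 7 with the trend removed. CR-WIS against MF-WIS (1) gave 2 with neqc, quantile normalization or the trend removed, 3 with weights and 0 with no filter or the block. CR-WIS against CR-NIA (7) gave 4 with the block. The diets averaged (3) gave 5 with the mean of probes and 6 with weights, and the diet difference of the CR effect (0) gave 3 with weights, 3 without the 3 libraries and 2 with the trend removed.

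Leaving out each library in turn gave 6 to 11 calls for CR-NIA against AL-NIA, 0 to 2 for CR-WIS against AL-WIS, 0 to 3 for MF-NIA against AL-NIA, 11 to 14 for CR-NIA against MF-NIA, 0 to 2 for CR-WIS against MF-WIS, 5 to 9 for CR-WIS against CR-NIA, 2 to 3 for the diets averaged and 0 to 2 for the diet difference of the CR effect (2 without CR-NIA replicate 1). The split of higher and lower calls was 4 and 4 for CR-NIA against AL-NIA with the trend removed, in place of 5 and 3. The shared replicate numbers did not pair the samples: for CR-WIS against CR-NIA 9 same-numbered pairs correlated at -0.488 to -0.00681, and for CR-NIA against MF-NIA 6 pairs at -0.159 to 0.288. neqc, quantile normalization and centred signals give no value for AL-NIA, whose signal columns were not used. They also hold no column that matches CR-NIA replicate 1, so that library is left out there as well. Only the groups compared gives no value of its own for the diets averaged. Group sizes of 4 to 10 arrays limit the precision, the smallest group being MF-WIS; Psmb8, Psmc6, Psmd2 and Psmd5 were not detected on every array read.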
